A study of Homo sapiens with 20 samples.

Results

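CL1-0 is an established human lung adenocarcinoma cell line. Its transcriptome was described here from 2 mRNA-seq libraries, 1 of PBS-treated cells (Mock) and 1 of cells treated with decitabine (DAC). DAC was given at 100 nM for 3 days and the cells then grew without drug for 3 days. Of the 36076 genes in the expression table, the 12740 with an FPKM (a read level corrected for transcript length and library size) of at least 1 in either CL1-0 library were kept, whatever they did after DAC. The series holds 20 libraries, of which 12 are mRNA-seq: A549, CL1-5, H1299, H1792 and PC9 were treated in the same way as CL1-0, also with 1 library for each line and treatment. CL1-5 is a subline of the same origin as CL1-0. Mock and DAC cells of a line differ in the drug alone as far as the labels say, and no allele or second agent is named for any of them.

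Decitabine is a cytidine analog that is built into DNA during replication and traps DNA methyltransferases, so that methylation is lost as cells divide. Genes whose promoters are held silent by methylation can then be transcribed. Among the best known are the cancer testis genes, which are normally read in germ cells and many of which lie on the X chromosome. Interferon-stimulated genes can rise as well, in answer to double-stranded RNA from repeats. The study that made these libraries asked what DAC does to the cytoskeleton and the surface of lung cancer cells that gamma delta T cells meet.

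The CL1-0 libraries held 22234485 (Mock) and 25303899 (DAC) reads on genes, against 22717769 to 59735913 in the other lines. H1299 had the most, but most of its values from 1 to 20 reads were even, so its depth may not compare with that of the others. Labels and markers did not match in full. Defining epithelial genes were at or near 0 in CL1-0: EPCAM stood at 0.151 FPKM before treatment and 0.456 after it, KRT18 at 0.118 and 0.924, KRT19 at 0 and 0.130, and KRT7 at 0 and 0.00825. EPCAM was as low in Mock cells of CL1-5 (0.132) and H1299 (0.0555). The lung genes NKX2-1 (0.335 and 0.384) and SFTPB (0.0103 and 0) were near 0 too, as in Mock cells of the other lines, where the highest values were 0.182 and 0.162. KRT8 was at 37.8 or more in Mock cells of each other line. No gene of a list of 22 leukocyte markers reached 1 in CL1-0, and of 11 fibroblast and endothelial markers COL3A1 alone did, at 2.03 and 2.16. As in any bulk sample, fewer cells of a kind and less RNA per cell cannot be told apart.

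To show what lies just before the start sites of the genes on which the results turn, the RefSeq sequence (GRCh38.p14) of the 250 bases before the start is given for 7 genes that have 1 listed start each. GPX1 and S100A6 came on in CL1-0 and in 1 other line, PAGE2B and GCNA were at least 2-fold higher in all 6 lines, BST2 was the interferon effector gene that was higher in CL1-0, and ISG15 and ACTG1 were read in Mock cells and lower after DAC. Each CG, the pair of letters that DNA methyltransferases modify, is in capitals. The windows were, in order, chr3:49358354-49358603 (minus strand), chr1:153535992-153536241 (minus), chrX:55074780-55075029 (plus), chrX:71578187-71578436 (plus), chr19:17405631-17405880 (minus), chr1:1013247-1013496 (plus) and chr17:81512800-81513049 (minus).
GPX1: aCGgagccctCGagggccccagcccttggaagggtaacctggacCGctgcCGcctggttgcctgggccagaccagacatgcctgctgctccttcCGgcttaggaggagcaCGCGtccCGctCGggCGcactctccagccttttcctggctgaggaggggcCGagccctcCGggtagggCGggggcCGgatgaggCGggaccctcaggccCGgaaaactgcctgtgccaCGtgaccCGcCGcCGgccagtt
S100A6: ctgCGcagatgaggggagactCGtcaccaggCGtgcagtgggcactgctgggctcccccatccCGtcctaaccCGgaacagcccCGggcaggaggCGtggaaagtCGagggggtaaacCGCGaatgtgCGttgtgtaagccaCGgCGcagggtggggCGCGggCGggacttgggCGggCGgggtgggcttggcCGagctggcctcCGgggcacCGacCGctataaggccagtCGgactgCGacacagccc
PAGE2B: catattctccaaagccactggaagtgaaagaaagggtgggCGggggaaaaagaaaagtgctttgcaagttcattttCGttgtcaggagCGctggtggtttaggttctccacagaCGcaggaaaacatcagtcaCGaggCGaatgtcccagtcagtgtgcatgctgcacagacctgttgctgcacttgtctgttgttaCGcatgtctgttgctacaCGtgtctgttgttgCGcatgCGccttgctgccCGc
GCNA: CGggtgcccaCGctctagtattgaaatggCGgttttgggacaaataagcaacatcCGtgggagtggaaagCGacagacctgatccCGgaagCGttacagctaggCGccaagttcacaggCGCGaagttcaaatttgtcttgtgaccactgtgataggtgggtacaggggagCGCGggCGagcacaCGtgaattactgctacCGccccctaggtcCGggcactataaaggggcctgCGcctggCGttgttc
BST2: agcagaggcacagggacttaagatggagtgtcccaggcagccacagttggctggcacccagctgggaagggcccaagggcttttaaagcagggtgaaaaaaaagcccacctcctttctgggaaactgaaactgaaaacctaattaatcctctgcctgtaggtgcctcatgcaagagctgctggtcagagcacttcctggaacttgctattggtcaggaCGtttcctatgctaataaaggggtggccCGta
ISG15: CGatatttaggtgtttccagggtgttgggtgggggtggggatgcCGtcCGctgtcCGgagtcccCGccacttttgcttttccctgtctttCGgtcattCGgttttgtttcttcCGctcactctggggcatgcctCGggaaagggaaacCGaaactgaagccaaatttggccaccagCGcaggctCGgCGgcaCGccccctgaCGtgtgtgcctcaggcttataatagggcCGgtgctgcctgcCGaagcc
ACTG1: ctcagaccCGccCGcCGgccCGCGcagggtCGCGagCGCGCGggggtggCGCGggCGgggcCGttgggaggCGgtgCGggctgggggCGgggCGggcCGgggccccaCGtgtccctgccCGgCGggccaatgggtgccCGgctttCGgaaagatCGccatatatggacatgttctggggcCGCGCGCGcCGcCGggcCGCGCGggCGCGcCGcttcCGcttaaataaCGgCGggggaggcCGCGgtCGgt

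These windows held 20 CG pairs at GPX1, 24 at S100A6, 11 at PAGE2B, 18 at GCNA, 2 at BST2, 17 at ISG15 and 43 at ACTG1. Over all RefSeq promoters the median was 11. At least as many as at GPX1 were held by 32.1% of promoters, as at BST2 by 84.6%, and as at ACTG1 by 1.00%. Genes that came on in CL1-0 thus had both CG-rich and CG-poor windows among those shown, and the letters say nothing about methylation in these cells. A count over the whole set of higher genes was void, since a promoter was matched for 61.4% of them, under the 80% set for such a count.

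By these counts CL1-0 had the narrowest response of the 6 lines. Of the 12740 genes, 463 (3.63%) were at least 2-fold higher and 152 (1.19%) at least 2-fold lower after DAC, on the scale log2((DAC + 0.1)/(Mock + 0.1)). Under the same rule A549 had 1457 higher and 1030 lower genes, H1792 1129 and 675, H1299 992 and 498, PC9 847 and 228, and CL1-5 642 and 403. The SD of the log2 ratio over genes was 0.60 in CL1-0, against 0.76 in CL1-5, the next narrowest, and 1.11 in A549, the widest. The interquartile range, which the tails do not touch, was 0.494 in CL1-0 and 0.488 in CL1-5, so the bulk of genes varied as little in CL1-5. At 4-fold, 148 genes (1.16%) were higher in CL1-0 and 30 (0.235%) lower. With 1 library a side there is no error on a CL1-0 ratio other than counting error, and no p-value is given for one.

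Scaling moved the balance. The FPKM of the CL1-0 libraries summed to 346387 in Mock and 305528 after DAC, and bringing all libraries to a common sum shifted the median log2 ratio of the 12740 genes by 0.18, from -0.05 to 0.13. The counts were then 666 higher and 111 lower, so that 85.7% of the calls were higher in place of 75.3%. With quantile normalization they were 407 and 235, or 63.4%. Some list medians below are therefore also given relative to the median of all 12740 genes, or with libraries at a common sum. Those values are for CL1-0 alone, and all medians of other lines are from the FPKM as deposited. In H1792 the FPKM sum rose, from 284496 in Mock to 319254 after DAC, so a common sum would lower its medians.

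The filter itself picked changes. Of the 12740 genes, 11497 (90.2%) passed in both libraries, and of these 90 were higher and 57 lower. Another 892 passed only after DAC, 373 of them called higher, and 351 only in Mock, 95 of them called lower. Such a gene had to differ, so its direction is no finding. PROCA1 (0.851 in Mock and 1.00 after DAC) lay just inside the rule and JAZF1 (0.801 and 1.00, before rounding below 1) just outside. Of the 463 higher genes, 240 had fewer than 50 reads in both libraries, as did 98 of the 152 lower ones, and 277 of the 1012 genes under 50 reads were small RNAs. With at least 50 reads in 1 library, a limit set after the data had been seen, 223 of 11728 genes were higher (1.9%) and 54 lower (0.46%).

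**Figure D1:**
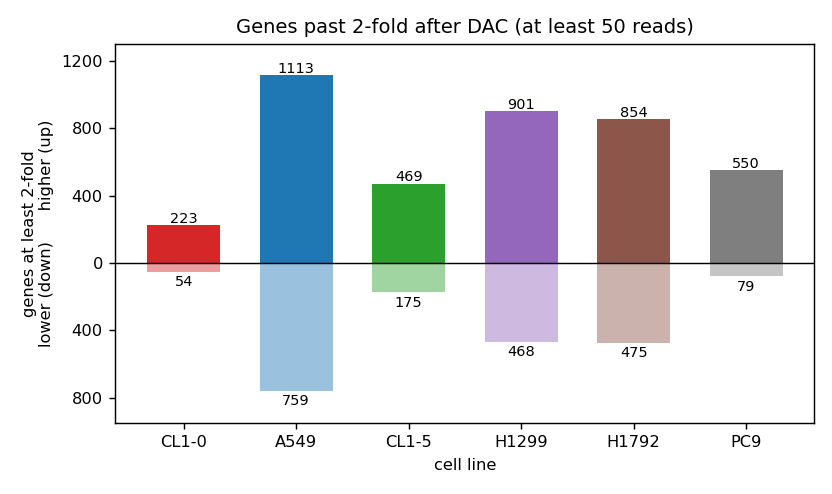
Number of genes with at least 50 reads that were at least 2-fold higher (bars upwards) or lower (bars downwards) after DAC in each of the 6 lines, 1 library a side. The CL1-0 bars are the shortest in both directions, at 223 and 54, and those of A549 the longest, at 1113 and 759.

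Of these 223 genes, 153 were protein coding and 51 long noncoding, and their median FPKM in Mock was 0.539. Since 90 of all 463 higher genes passed the filter in both libraries, most of the 223 passed only by their level after DAC. The share on X below therefore describes genes chosen largely by that difference, and is not given for genes passing in both. The X chromosome held 24 of them (10.8%), against 3.81% of all 11728 genes. In the other lines 6.61% to 8.73% of the higher genes were on X. At most 3 Mock reads were seen for 27 of the 223, and 15 of those 27 were on X. The 54 lower genes had a median FPKM of 4.57 in Mock, 43 were protein coding and 1 was on X. Median transcript length was 2827 bases in the higher, 2097 in the lower and 4738 in the other genes.

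The overlap with the other lines is given as a share of the CL1-0 list, beside the share of all CL1-0 members with at least 50 reads called in that line. Most of the 223 higher genes passed the filter only by their level after DAC, so their overlap describes genes chosen largely by that difference. Of the 223 higher genes, 70 were also at least 2-fold higher in 1 other line, 25 in 2, 26 in 3, 32 in 4 and 28 in all 5. The remaining 42 were higher in no other line. A549 shared 133 of them (59.6% of the CL1-0 list, with 6.86% of the same genes higher in A549). The 133 were 16.5% of the CL1-0 members with at least 50 reads that were higher in A549. CL1-5 shared 99 (44.4%, against 2.85%), or 29.6% of such members that were higher in CL1-5. H1299 and H1792 shared 81 each (36.3%, against 5.25% and 5.10%), and PC9 72 (32.3%, against 3.92%). Of the 54 lower genes, 33 were lower in no other line and none in 4 or 5. A549 shared 16 of them (29.6%, with 5.69% of genes lower in A549), CL1-5 shared 5 (9.26%, against 1.01%), H1299 shared 4 (7.41%, against 3.09%), PC9 shared 3 (5.56%, against 0.563%) and H1792 shared 0 (against 3.42%).

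**Figure D2:**
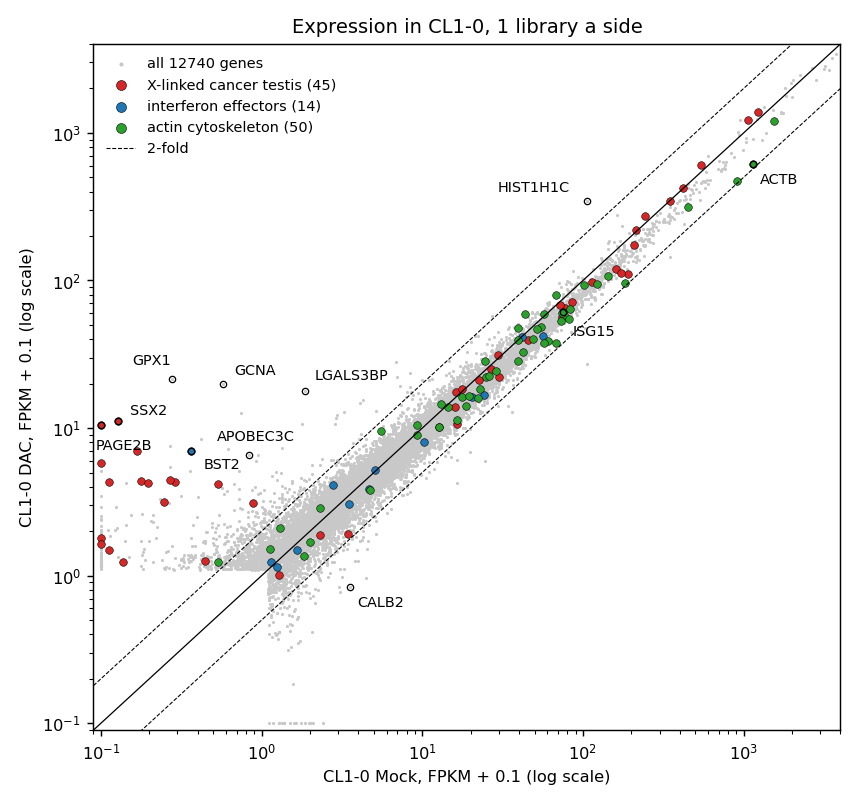
FPKM + 0.1 after DAC against Mock in CL1-0 (both axes log scale), each grey point 1 of the 12740 genes, with the 45 X-linked cancer testis, 14 interferon effector and 50 actin genes coloured and dashed lines at 2-fold. The cancer testis genes form 1 set along the diagonal, up to 1220 in Mock, and another towards the left, below 1 in Mock and up to 11.1 after DAC. The left set passed the filter only by its level after DAC.

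The 15 highest ratios belonged to genes of the X chromosome, cancer testis genes among them, and to a few autosomal genes near 0 in Mock. All 15 were below 1 FPKM in Mock and passed the filter only by their level after DAC, so their direction is no finding. PAGE2B, a cancer testis gene, went from an FPKM of 0 (0 reads) to 10.5 (157 reads), at least 41.7-fold higher when Mock is set at a floor of 3 reads, and its ratio in the other lines was 3.16 to 7.76 on the log2 scale. PAGE2 (0 to 5.72, at least 29.8-fold) is a near copy, so reads may be split between them. SSX2 went from 1 to 507 reads (0.0276 to 11.1 FPKM, 404-fold by reads, 95% counting interval 72.2 to 15997), and also has near copies. GCNA, a germ cell nuclear protein gene with no close copy in the list, went from 41 to 2134 reads (0.480 to 19.9 FPKM, 41.5-fold, 30.5 to 58.0). PNMA6E, SSX4, PNMA5, MAGEB2 and SSX1 were the other X-linked genes among the 15 highest, with log2 ratios of 4.42 to 5.68. All intervals and floors here cover counting error only.

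Of the autosomal genes among the 15 highest, GPX1 and S100A6 stood out by their pattern over lines. GPX1 encodes the cytosolic glutathione peroxidase that reduces hydrogen peroxide (GRCh37 chr3:49394607-49396038). It was at 0.178 in Mock (6 reads) and 21.3 after DAC (900 reads), a 120-fold difference by reads with an interval of 54.7 to 327. The log2 ratio was 6.27 in CL1-0 and 7.60 in H1299, against -0.18 to 0.69 in the other 4 lines. S100A6, a small calcium-binding protein gene, went from 0.0436 (1 read) to 4.14 (119 reads), with 4.88 in CL1-0, 5.23 in H1299 and -0.70 to 0.77 in the others. Both genes were thus near 0 in Mock and read after DAC in the same 2 of 6 lines. In CL1-0 both passed the filter only by their level after DAC.

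The remaining 4 of the 15 differed in how widely they were shared. NR5A1, which encodes the steroidogenic nuclear receptor SF-1, went from 0.0248 to 2.82 FPKM (4.55) and was also higher in all 5 other lines. GTSF1, a gene of the piRNA pathway, went from 0.168 to 5.38 (4.35) and was higher in 4. CES1, a carboxylesterase gene, went from 0.317 to 8.35 (4.34), above the 0.05 to 3.42 of the other lines. The noncoding RNA ELFN1-AS1 went from 0.171 to 7.48 (4.80) and ranged from -1.58 to 3.28 elsewhere.

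**Figure D3:**
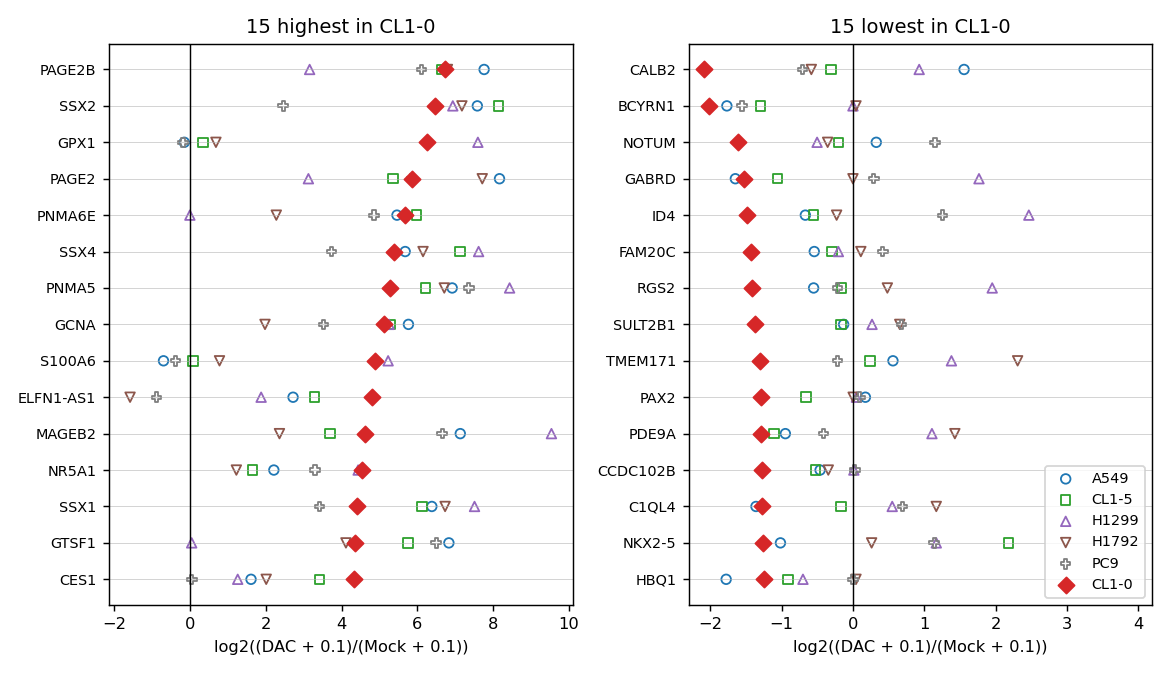
Log2 ratio of the 15 highest and 15 lowest genes of CL1-0 (diamonds) with the same gene in the other 5 lines (open symbols), 1 value per line, among genes with at least 50 reads. The cancer testis genes lie to the right in every line, GPX1 and S100A6 in CL1-0 and H1299 alone, and most of the 15 lowest are nearer to or above 0 in the other lines.

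The lowest ratios were smaller in size than the highest. CALB2, the calcium buffer calretinin of neurons and mesothelium, went from 3.43 to 0.734 FPKM (-2.08), below the -0.71 to 1.56 of the other lines. ID4, an inhibitor of helix-loop-helix factors, went from 36.1 to 12.8 (-1.49, others -0.67 to 2.47). GABRD, a subunit of the GABA-A receptor, went from 19.8 to 6.78 (-1.53, others -1.65 to 1.77). Also among the 15 were the transcription factor genes PAX2 (1.25 to 0.449) and NKX2-5 (4.03 to 1.63), the Wnt deacylase gene NOTUM (3.73 to 1.15), the G protein regulator gene RGS2 (16.3 to 6.03) and the cytoplasmic RNA BCYRN1 (24.4 to 5.91). The other 7 had ratios of -1.43 to -1.25.

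Differences in FPKM, which weigh abundant genes, gave other genes. They were ranked among members changed at least 1.5-fold, so genes with a smaller ratio were left out whatever their difference. The gain was largest for HIST1H1C, a linker histone gene, from 106 to 347 FPKM (1.70), followed by HIST1H2BK, from 163 to 276 (0.77), and the imprinted noncoding RNA H19, from 27.2 to 57.6 (1.08). Next came HIST1H2AC, GPX1, ATF5, a stress transcription factor gene (21.1 to 41.8), OGT, which attaches GlcNAc to proteins (22.1 to 42.1), GCNA, HIST1H4I (19.9 to 38.4) and LGALS3BP, a secreted galectin-binding glycoprotein gene, which went from 1.77 to 17.7 (3.25). The loss was largest for ACTB, from 1138 to 613 (-0.89), and ACTG1, from 906 to 474 (-0.94), the 2 cytoplasmic actins, followed by the transcript CTD-2328D6.1 (349 to 144). CCN2, a matricellular gene (428 to 242, -0.82), the actin-binding thymosin gene TMSB4X (182 to 96.8, -0.91) and the myosin light chain gene MYL12B (239 to 147, -0.70) were also among the 10 largest losses. The others were the galectin gene LGALS1 (533 to 350), the ribosomal protein gene RPS15 (274 to 180), the spermine synthase gene SMS (223 to 138) and PPDPF (215 to 133).

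Of 74 X-linked cancer testis genes, 45 were members, with 17 at least 2-fold higher (3.63% of all genes) and none lower. The median log2 ratio of the 45 was 0.08, below the 0.62 to 5.54 of the other lines. The 28 genes with an FPKM of at least 1 in Mock had a median Mock level of 75.3 and ratios of -0.86 to 0.18, with none called. GAGE2E was at 1220 in Mock and 1380 after DAC, VCX3A at 418 and 423, MAGEA4 at 207 and 174, CTAG2 at 173 and 112, and MAGEA1 at 73.6 and 56.5. GAGE, VCX, SPANX, XAGE1, CTAG1 and MAGEA3/MAGEA6 are families of near copies, so the split of reads within them is uncertain.

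The other 17 genes, below 1 in Mock, passed by their level after DAC alone and were all called higher. The rule chose them by that difference, so it makes no contrast with the 28 genes read in Mock. Their ratios were 1.49 to 6.72 with a median of 4.04. Besides the genes above they included TKTL1 (0 to 1.55), SSX3 (0 to 1.70), PAGE5 (0.171 to 4.32), MAGEC2 (0.149 to 3.05) and NXF2 (0.434 to 4.05). In the other lines the same 17 genes had medians of 3.42 to 5.65. Counted by level over the 74 genes, CL1-0 had 28 at 1 FPKM or more before treatment and 44 afterwards, against 5 and 44 in A549, 7 and 42 in H1792, 20 and 41 in PC9, 25 and 45 in H1299 and 27 and 44 in CL1-5. The 6 lines ended within 41 to 45 genes and started from 5 to 28.

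Of 49 autosomal germline genes, 19 were members, 6 of them higher (3.63% of all genes) and none lower, with a median of 0.80 (others 0.19 to 0.95). All 6 were below 1 in Mock and passed only by their level after DAC. DAZL, a germ cell RNA-binding protein gene, went from 0.0117 to 1.94 (4.19), SOHLH1 from 0 to 1.14 (3.63), DPPA2 from 0.214 to 3.37 (3.46), CTCFL, the testis relative of CTCF, from 0.304 to 3.30 (3.08) and REC8, a meiotic cohesin gene, from 0.386 to 1.25 (1.47). PRAME, already read in Mock, was at 70.8 and 63.4. With the filter in both libraries the median of the list was -0.11.

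Of 38 interferon effector genes 14 were members, with BST2 at least 2-fold higher (3.63% of all genes) and none lower, and their median was -0.18, or -0.13 relative to that of all genes. The medians in the other lines were 0.04 (H1792), 0.18 (PC9), 0.51 (H1299), 1.17 (A549) and 2.38 (CL1-5, where all 14 were higher). BST2 encodes tetherin, which holds budding virus at the cell surface (GRCh37 chr19:17513748-17516439). It went from 0.265 FPKM (7 reads) to 6.94 (230 reads), 26.2-fold by reads with an interval of 12.5 to 65.9, so it passed the filter only by its level after DAC, and its log2 ratio of 4.27 lay within the 2.56 to 5.99 of the other lines.

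None of the effectors already read in Mock passed 2-fold in either direction. ISG15, a ubiquitin-like modifier gene, was at 75.2 and 60.7 (-0.31), against 0.75 to 4.71 in the other lines. IFI6 was at 20.3 and 16 (-0.34, others 0.41 to 3.54), IFI35 at 24.1 and 16.7 (-0.53, others -0.46 to 2.52), LY6E at 56.6 and 41.7 (-0.44, others -0.24 to 1.60) and IFITM3 at 41.6 and 41.3 (-0.01, others 0.01 to 1.73). In 6 of the 14 genes the CL1-0 ratio was below that of all 5 other lines, where 11.2% of all 12740 genes were. IFITM2 was at 2.69 and 4.01 (0.56, others 0.04 to 1.75).

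The other 24 effectors stayed below an FPKM of 1 in both libraries. MX1 was at 0.0147 and 0.0314, OAS1 at 0.0257 and 0.0137, RSAD2 at 0 and 0.0140, IFI44L at 0.0620 and 0.0594 and IFI27 at 0.174 and 0.351. The number of effectors at 1 or more was 13 in Mock and 14 after DAC in CL1-0, the lowest pair of the 6 lines. It was 29 and 37 in CL1-5, 20 and 31 in A549, 28 and 31 in H1792, 19 and 24 in H1299 and 18 and 21 in PC9. BST2 was thus the 1 effector that passed from below 1 to above it in CL1-0.

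The sensors and signalling genes upstream were present in part. Of 21 genes, 13 were at 1 FPKM or more in CL1-0 in Mock and 13 after DAC. The other lines had 12 to 19 in Mock and 16 to 19 after DAC. Of 21 genes, 13 were members with a median of 0.12 (others 0.14 to 0.51), and 1 was at least 2-fold higher (3.63% of all genes). This was IRF7, the factor that amplifies interferon production, from 1.18 to 2.51 (1.03, others 0.14 to 2.76). STAT2 was at 7.51 and 9.91 (0.40), and DDX58, which encodes the RNA sensor RIG-I, at 1.83 and 2.43 (0.39, others 0.41 to 3.13). IRF1 was at 1.27 and 1.39 (0.12), below the 0.55 to 2.06 of the other lines. The receptor genes IFNAR1 (8.69 and 9.85), IFNAR2 (2.09 and 1.93), IFNGR1 (6.99 and 7.29) and IFNGR2 (15.6 and 15.9) were within 0.18 of 0. Of the interferon genes themselves IFNL1 alone was a member, at 0.840 and 1.3 with 17 and 33 reads.

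Class I antigen presentation genes were read throughout and none passed 2-fold in either direction. Of the 15 members 13 were below 0, with a median of -0.17, or -0.12 relative to that of all genes, and with libraries at a common sum the median was 0.02. With the FPKM as deposited it was 0.18 to 1.14 in the other lines, and in 12 of the 15 genes CL1-0 was below all 5 (11.2% of all genes). B2M, the light chain, was at 45.3 and 40.4, the heavy chains HLA-B at 40.3 and 37.6 and HLA-C at 145 and 121. The peptide transporter gene TAP1 was at 7.51 and 6.15 (-0.29, others 0.54 to 2.22). PSMB9, a subunit of the immunoproteasome, was lowest at 3.74 and 1.85 (-0.98, others -0.08 to 1.93), and ERAP1, which trims peptides, was highest at 2.06 and 2.69 (0.37).

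**Figure D4:**
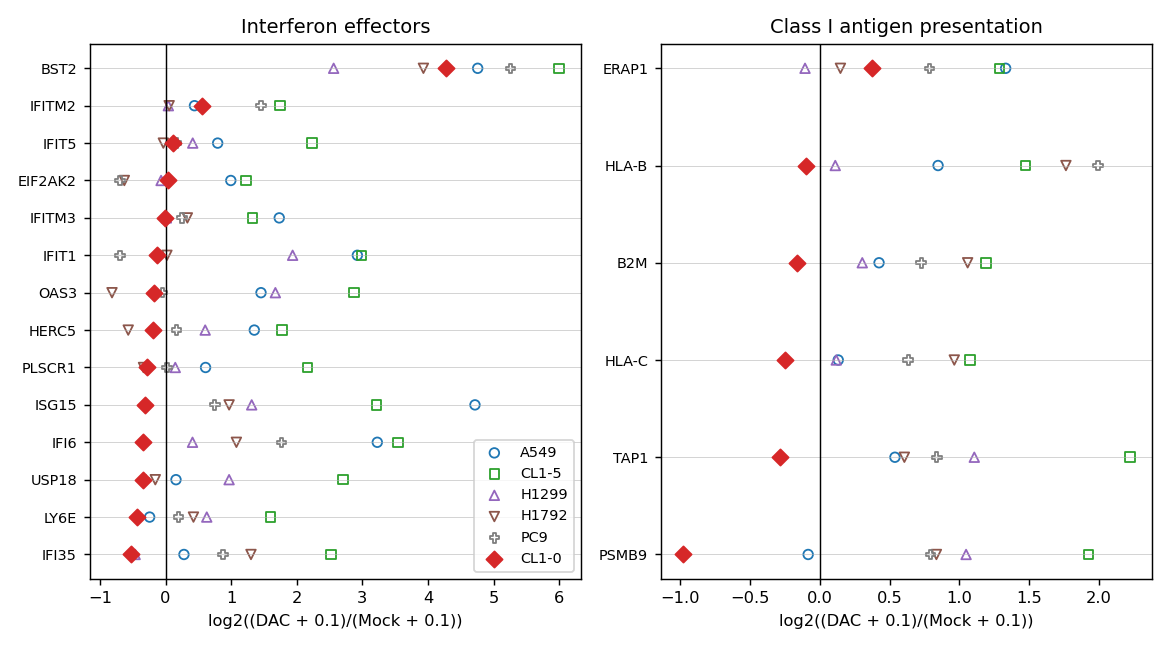
Log2 ratio of the 14 interferon effector genes (left) and the 6 class I antigen presentation genes with values in the text (right), for CL1-0 (diamonds) and the other 5 lines (open symbols), 1 value per line. BST2 lies at 4.27 in CL1-0, among the other lines, while ISG15 and IFI6 lie below 0 in CL1-0 and above 0 in each other line, and CL1-0 is the leftmost symbol for each class I gene shown other than ERAP1.

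Of 13 class II genes 3 were members. HLA-DRB1 was at 7.34 and 3.86 (-0.91) and HLA-DRB5 at 1.71 and 0.750 (-1.09, 51 and 28 reads). The pair are near copies, and both were at 0.360 or less in each library of the other 5 lines, so the ratios there make no comparison. HLA-DMA was at 2.24 and 2.75 (0.28).

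No member among the ligands and adhesion genes that gamma delta T cells meet on a target passed 2-fold. Of 30 genes, 19 were members, 15 of them below 0, with a median of -0.27, against 0.04 to 0.43 in the other lines. For CL1-0 alone it was -0.22 relative to that of all genes and -0.09 at a common sum, where no rank among the lines is given. The NKG2D ligand genes MICA (20.3 and 13.8, -0.56), MICB (32.7 and 24.7, -0.40, others 0.04 to 1.09), ULBP2 (7.47 and 6.06, -0.30, others 0.23 to 1.65) and RAET1L (1.23 and 0.728, -0.68) were below 0, while ULBP1 was at 13.7 and 14.2. The butyrophilin genes that present phosphoantigens were at 2.02 and 1.40 (BTN3A1) and 12.6 and 12.5 (BTN2A1). The death receptor gene TNFRSF10B was at 20.8 and 22.7. ICAM1, the adhesion molecule of the synapse, went from 0.0800 (7 reads) to 0.984 (108 reads), 12.3-fold by reads with an interval of 5.77 to 31.3. It lay just under the filter on FPKM and so was not a member, with a log2 ratio of 2.59 against 1.91 to 4.99 in the other lines.

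Of 71 actin genes 50 were members, with 37 below 0, 1 past 2-fold higher (3.63% of all genes) and none lower. Their median was -0.29, against -0.08 to 0.30 in the other lines. For CL1-0 alone it was -0.24 relative to that of all genes, and -0.11 at a common sum, where no rank among the lines is given. Besides the actins, the cross-linker gene CNN2 was at 67.5 and 37.8 (-0.83, others -0.10 to 0.26), TAGLN2 at 60.3 and 38.9 (-0.63), FLNA at 56.9 and 37.6 (-0.59), MYH9, the nonmuscle myosin heavy chain gene, at 81.6 and 54.4 (-0.58, others -0.41 to 0.50), profilin PFN1 at 451 and 313 (-0.53) and cofilin CFL1 at 144 and 107 (-0.43). In 14 of the 50 genes CL1-0 was below all 5 other lines (11.2% of all genes).

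Among the actin genes above 0 were several with a higher ratio in some other lines. FES, a tyrosine kinase gene, went from 0.440 to 1.14 (others 0.89 to 3.21), CORO1A, the coronin of blood cells, from 5.42 to 9.46 (0.79, others 0.26 to 2.73) and the myosin light chain gene MYL9 from 43.5 to 59.4 (0.45, others 0.87 to 7.53). FES was below 1 in Mock and passed only by its level after DAC. ACTR2, a subunit of the Arp2/3 complex, was at 67.7 and 79.9 (0.24) while ARPC1B was at 39.1 and 28.2 (-0.47), so its subunits lay on both sides of 0. HCLS1, a cortactin relative of blood cells, went from 0 to 0.643 and was not a member.

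Transcript length moved with the ratio and differed between these lists, with a median of 2386 bases for interferon effectors, 3750 for gamma delta ligands, 4243 for class I, 4657 for actin and 4351 for all 12740 genes. Among the 10567 protein coding genes with at least 50 reads, Spearman's rho between length and ratio was 0.31 in CL1-0, given as a description over genes of the same 2 libraries. The median ratio was -0.25 in the shortest of 5 equal length classes (up to 2859 bases) and 0.07 in the longest. In the other lines rho ran from -0.36 (H1792) to 0.43 (A549). After centring on genes of like length, an alternative chosen after the data had been seen, the medians were -0.22 for actin, -0.14 for interferon effectors and for gamma delta ligands, and -0.03 for class I.

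Of 39 intermediate filament genes 16 were members, with 5 higher (3.63% of all genes) and none lower and a median of 0.16 (others -0.08 to 0.56), which was -0.17 among genes passing in both libraries. EVPL, an envelope protein of squamous epithelium, went from 0.0282 to 1.23 (3.38, others -0.62 to 3.20), keratin KRT8 from 0.154 to 1.05 (2.18), nestin NES from 0.724 to 2.42 (1.61), alpha-internexin INA from 1.23 to 3.21 (1.31) and periplakin PPL from 0.805 to 1.76 (1.04). All but INA were below 1 in Mock and passed only by their level after DAC. Of the abundant members NEFL, the light neurofilament, was at 119 and 73.7 (-0.69) and vimentin VIM at 122 and 106 (-0.21). KRT8 after DAC was still below its Mock level in any other line.

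Microtubule genes stayed near the rest of the transcriptome. Of 58 genes 46 were members, with 2 higher (3.63% of all genes) and none lower. The median of the 46 was -0.16, or -0.12 relative to that of all genes and 0.02 at a common sum (others -0.22 to 0.20). The 2 higher were TUBA3D (0.133 to 3.23, 3.84) and TUBA3E (0.110 to 2.47, 3.62), testis alpha tubulins that are near copies. Both were below 1 in Mock and passed only by their level after DAC. TUBB6 was lowest, at 22.4 and 14.9 (-0.59, others -0.18 to 1.06), and the abundant TUBB was at 551 and 463 (-0.25).

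**Figure D5:**
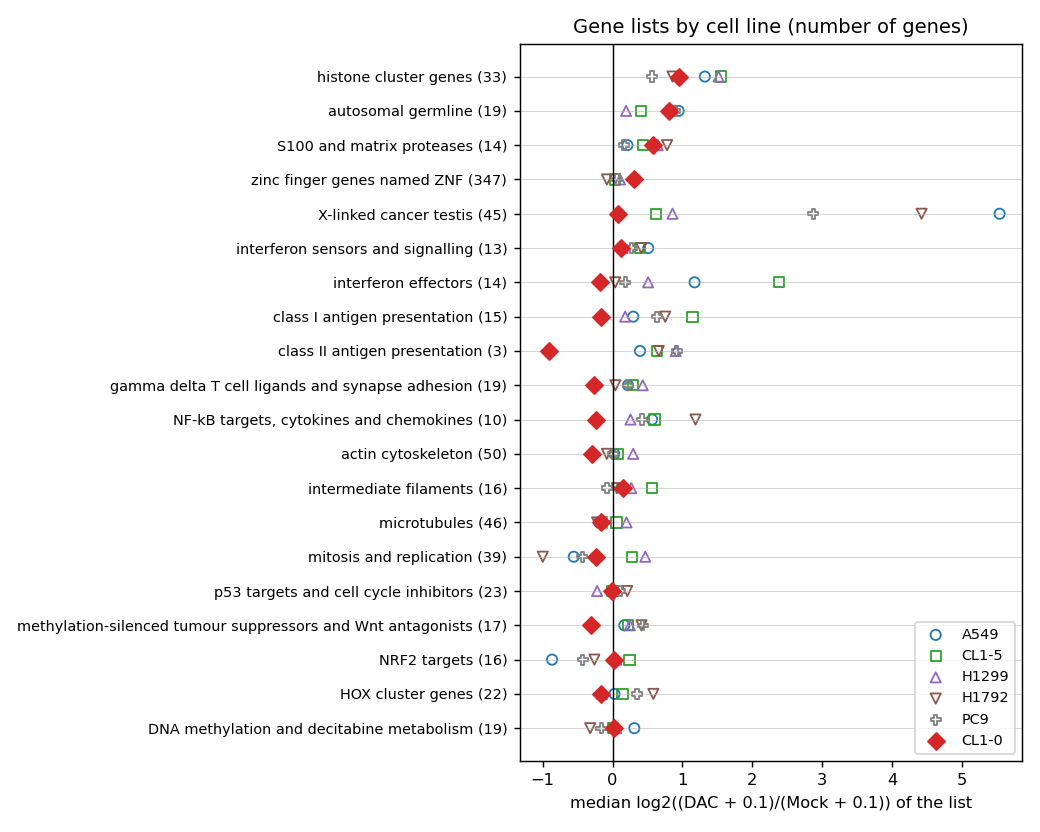
Median log2 ratio of 20 gene lists, each over its members in CL1-0, for CL1-0 (diamonds) and the other 5 lines (open symbols), 1 value per line. With the FPKM as deposited, CL1-0 lies at the low end for interferon effectors (-0.18), class I (-0.17, or 0.02 at a common sum), gamma delta ligands (-0.27) and actin (-0.29). It lies within the other lines for germline genes (0.80) and histones (0.95).

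Proliferation and DNA methylation genes had medians inside those of the other lines. Of 39 mitosis and replication genes none passed 2-fold and 30 were below 0. Their median was -0.23, inside the -0.997 (H1792) to 0.47 (H1299) of the other lines. It was -0.18 relative to that of all genes and -0.05 at a common sum. The extremes were TTK, a spindle checkpoint kinase gene, at 8.65 and 12 (0.47), and CDT1, a replication licensing factor gene, at 39.2 and 25.3 (-0.63). Of 19 genes of DNA methylation and decitabine metabolism none passed 2-fold and the median was 0.02: DNMT1 was at 33.0 and 31.3, DNMT3B at 10.2 and 14.1, DCK, the kinase that activates decitabine, at 7.48 and 8.44, and UHRF2 at 2.29 and 3.62 (0.64, others -0.44 to 0.31). Of 23 p53 targets and cell cycle inhibitors 1 was higher and 1 lower (3.63% and 1.19% of all genes). These were the stress cytokine gene GDF15 (2.29 to 6.08, 1.37) and GADD45A (29.3 to 14.1, -1.06, others -0.70 to 0.59). CDKN1A was at 8.90 and 9.17 (0.04), against 0.64 to 1.35 in the other lines.

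Histone cluster genes had the largest median in CL1-0 of the 31 lists with at least 3 members. Of 33 members 15 were higher and 1 lower (3.63% and 1.19% of all genes), with a median of 0.95 (others 0.56 to 1.55) and 0.76 or more under each alternative tried. HIST1H2AC went from 6.76 to 28.1 (2.04), HIST1H4H from 2.86 to 12.2 (2.05), HIST1H2BJ from 6.82 to 22.0 (1.68) and HIST2H2BE from 64 to 471 reads (2.46, others 0.16 to 1.67). The 1 lower gene, HIST1H4C, had 22 and 9 reads. Replication histone messages mostly lack a poly(A) tail, so poly(A) selected libraries see a part of them, and HIST2H4A and HIST2H4B are copies of each other.

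Of 14 members of the S100 and matrix protease list 7 were higher (3.63% of all genes) and none lower, with a median of 0.58 (others 0.16 to 0.78) that was -0.19 among genes passing in both libraries. Besides S100A6, S100A16 went from 0.0996 to 1.61 (3.10, others -1.19 to 1.99), S100A4 from 0.579 to 4.05 (2.61), S100P from 0.165 to 1.03 (2.09) and S100A13 from 0.363 to 1.07 (1.33, others -0.73 to 1.14). S100A10 (57.2 and 50.2) and S100A11 (21.4 and 16.7), read in Mock, were not higher. The proteases MMP14 (0.892 to 2.22) and MMP1 (0.516 to 1.22) were the other 2. All 7 were below 1 in Mock and passed only by their level after DAC.

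Of 35 tumour suppressors known to be methylated in cancer and Wnt antagonists, 17 were members, each at an FPKM of at least 1 in Mock. The others were below 1 in both libraries, so genes of the list that were silent in Mock are not described. Among the 17 none passed 2-fold and the median was -0.30 (-0.12 at a common sum), against 0.17 to 0.43 in the other lines. CL1-0 was below all 5 in 8 of the 17 genes (11.2% of all genes). RUNX3 was at 6.32 and 3.55 (-0.81, others 0.22 to 1.76), MSX1 at 7.47 and 3.86 (-0.94), SFRP1 at 3.68 and 2.09 (-0.79), MGMT at 12.7 and 7.54 (-0.74) and TFPI2 at 24.8 and 20.1 (-0.30, others 1.11 to 2.64). CASP8, the initiator caspase, was highest at 1.70 and 2.65 (0.61). All 17 were read in Mock.

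Of 10 members among NF-kB targets, cytokines and chemokines none passed 2-fold, with a median of -0.24 (-0.07 at a common sum, others 0.26 to 1.19). NFKB2 was at 12.6 and 8.93 (-0.50, others 0.63 to 1.17) and RELB at 1.42 and 1.16 (-0.28, others 0.55 to 2.36), while the cytokine gene LIF was at 2.76 and 4.58 (0.71). Of 8 epithelial members 1 was higher (3.63% of all genes). It was CLDN7, a tight junction gene (0.119 to 1.69, 3.03), which passed only by its level after DAC. TJP3 was lowest (1.42 and 0.665, -0.99). The median over 21 mesenchymal members was 0.07, within the -0.07 to 0.49 of the other lines.

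The only test the design allows compares lines. The CL1-0 log2 ratio was set against the mean of the other 5 lines' ratios with limma over 22814 genes, on the assumption that the CL1-0 ratio varies like the others. No gene passed an adjusted p of 0.05 (0%), among them the 12737 members tested. At an unadjusted p under 0.05 there were 85 members higher in CL1-0 (0.667%) and 112 lower (0.879%), and voom on the recovered reads gave 0 adjusted and 48 and 84 unadjusted. For a single gene an exact permutation of 1 line against 5 cannot go below 1 in 6, so it was not used. Without a test, the CL1-0 ratio lay above all 5 other lines in 1185 genes (9.3%) and below all 5 in 1424 (11.2%).

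Of the 20 members with the smallest p on either side, 16 had fewer than 50 reads in both CL1-0 libraries and are not described. Of the other 4, LOC157273 had the largest difference, at -4.48. APOBEC3C, a cytidine deaminase gene that restricts retroelements (GRCh37 chr22:39410262-39416357), had the next largest. It went from 0.737 FPKM (49 reads) to 6.42 (536 reads), 8.72-fold by reads with an interval of 6.50 to 11.9. Its log2 ratio was 2.96 in CL1-0 and -0.87 to -0.22 in the other lines, a difference of 3.53 ± 0.32 (SE) with a limma adjusted p of 0.21. TOR4A, a torsin gene, went from 0.347 to 1.61 (1.94, others -0.45 to 0.32). Both APOBEC3C and TOR4A were below 1 FPKM in Mock and passed the filter only by their level after DAC. SMPD1, the acid sphingomyelinase gene, went from 7.98 to 3.88 (-1.02, others 0.22 to 0.85). The noncoding LOC157273 went from 10.2 to 6.14 (-0.72) where it was 2.86 to 5.08 in the other lines. APOBEC3C was the 1 gene of these that was higher in CL1-0 and lower in all 5 others, a pattern seen in 110 of the 12740 genes (0.863%), and the reverse, as in SMPD1, was seen in 295 (2.32%).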

How the data were processed

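mRNA-seq libraries of 6 lung cancer lines, 1 Mock and 1 DAC library each, were described. Per the study's methods, the authors prepared stranded poly(A) libraries, aligned reads to hg19, counted them on GENCODE release 25 genes mapped to that build and deposited FPKM values made with DESeq2 1.24.0. Submitters' processing notes name TopHat2 2.1.1, while the methods name another aligner, so the aligner is uncertain. Whether counting used strand is not given in the sources used here. The deposited fold changes and p-values of the authors' own comparison were not used, nor were the Omni-ATAC-seq files. The number of value columns without a sample was 0.

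The deposited base mean, a signal over all libraries that the authors made with DESeq2 from counts divided by size factors, was used with the FPKM values to recover reads and transcript lengths. In every library 100% of values were whole within 0.02 reads, and in H1299 81.9% and 85.5% of values from 1 to 20 reads were even, against 39.2% to 41.5% elsewhere. Members had an FPKM of at least 1 in either CL1-0 column. Ratios used a pseudocount of 0.1, which understates the change of low genes. CL1-0 was compared with the other 5 lines with limma 3.58.1 on within-line differences of log2(FPKM + 0.1), so that the line is the block, keeping genes whose mean over libraries was 0.1 FPKM or more, with a trend and Benjamini-Hochberg adjustment. The script was tested on simulated data. Positions came from GENCODE release 44 on GRCh37, matched for 35393 of 36076 genes. Named genes were the 15 highest and 15 lowest ratios with at least 50 reads, and the 10 largest FPKM gains and losses among members changed at least 1.5-fold. They were also the 10 smallest limma p-values each way, the extremes of each list, and members of the interferon, antigen presentation and cytoskeleton lists. Others were chosen after their values were seen. Members and all 35 lists were chosen with earlier results of these data known. Results for some genes are not reported here.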

Additional observations from a re-analysis of the deposited data

Results flagged for a closer look

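With the FPKM as deposited, 6 lists had a median log2 ratio below 0 in CL1-0 while every other line had one above 0. They were interferon effectors (-0.18), class I antigen presentation (-0.17), class II antigen presentation (-0.91, 3 genes), and gamma delta T cell ligands and synapse adhesion (-0.27). The rest were NF-kB targets, cytokines and chemokines (-0.24), and tumour suppressors known to be methylated in cancer with Wnt antagonists (-0.30, all 17 read in Mock). The class II value rests on HLA-DRB1, which was at 0.352 FPKM or less in the other lines, so its ratios there make no comparison. These differences between lines were not tested as lists. With libraries scaled to a common sum the CL1-0 class I median was 0.02 and its others stayed below 0, at -0.01, -0.74, -0.09, -0.07 and -0.12. Medians of the other lines at a common sum are not given. The H1792 FPKM sum rose from 284496 in Mock to 319254 after DAC, so a common sum would lower its medians. Those for interferon effectors and gamma delta ligands, both 0.04 in H1792, need not stay above 0, so the contrast depends on the scale.

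APOBEC3C had a log2 ratio of 2.96 in CL1-0 and was below 0 in all 5 other lines. LOC157273 (-0.72) and SMPD1 (-1.02) were lower in CL1-0 and above 0 in all 5. The limma test of CL1-0 against the other lines gave adjusted p-values of 0.21, 0.86 and 1.00 for these 3 genes, so the opposite direction was not past the threshold for any of them.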

How the results depend on the processing

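The counts of genes at least 2-fold higher and lower (463 and 152) were 173 and 50 with a pseudocount of 1, 90 and 57 with an FPKM of at least 1 in both libraries, 48 and 28 with at least 5 in either, 2630 and 794 without a filter, 407 and 235 with quantile normalization, 165 and 52 for protein coding genes, 148 and 30 at 4-fold, 1092 and 700 at 1.5-fold, and 223 and 54 with at least 50 reads. A pseudocount of 0.01 (506 and 175), a common sum (666 and 111), centring on the median (499 and 135) and centring by length (491 and 141) kept both within 1.5 times. The 50-read and length alternatives were chosen after the data had been seen. At a common sum the list medians were 0.30 for interferon sensors, -0.091 for gamma delta ligands, -0.11 for actin, 0.015 for microtubules, 0.18 for p53 targets, 0.022 for hypoxia, 0.16 for lung lineage, -0.12 for tumour suppressors, 0.19 for imprinted genes and 0.50 for zinc finger genes. With quantile normalization they were -0.10 for actin and 0.048 for hypoxia. A pseudocount of 1 gave -0.63 for class II, 0.44 for germline genes and 0.30 for S100 genes and proteases. The filter in both libraries gave -0.17 for intermediate filaments, -0.11 for germline genes and -0.19 for S100 genes and proteases. The cause of these shifts was not tested. The limma count of 0 and 0 members became 2 higher and 5 lower with a pseudocount of 1, 6 and 6 without a filter on low genes, where APOBEC3C had an adjusted p of 0.012, and 2 and 5 without a trend. Leaving out each of the other 5 lines in turn gave 0 in each case, with 68 to 197 higher and 101 to 222 lower members at an unadjusted p under 0.05. Without the replicate block, that is without pairing Mock and DAC of a line, the count was 0 and 0, with 10 and 15 unadjusted. No result took the opposite sign past its threshold. Depth limits genes under 50 reads, and with 1 library a side no biological spread is measured in CL1-0.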

Other observations

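Of 347 members among genes named ZNF, many of which encode KRAB repressors of retroelements, 274 were above 0, 4 were at least 2-fold higher (3.63% of all genes) and none lower. Their median was 0.31, or 0.36 relative to that of all members, against -0.08 to 0.33 in the other lines, and in 62 of them CL1-0 was above all 5 (9.3% of all genes). ZNF513 was highest, at 1.02 and 2.53 FPKM (1.23), and ZNF688 lowest, at 2.24 and 1.11 (-0.96). Their median transcript length was 5285 bases, in a line where longer transcripts had higher ratios, and with length centred the median was 0.35.

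Of 15 imprinted members 3 were higher (3.63% of all genes): IGF2 (0.372 to 1.25, 1.51), MEST (1.62 to 3.68, 1.14) and H19 (27.2 to 57.6, 1.08). IGF2 was below 1 in Mock and passed only by its level after DAC. PHLDA2 was lowest, at 8.07 and 4.28 (-0.90). Of 16 NRF2 targets 3 were higher (3.63% of all genes), the aldo-keto reductase genes AKR1C1 (0.353 to 1.05), AKR1C2 (0.315 to 1.09) and AKR1C3 (0.252 to 1.16), which are close copies. Their log2 ratios were 1.34 to 1.83 in CL1-0, and all 3 were below 1 in Mock and passed only by their level after DAC. In the other lines AKR1C1 had ratios of -1.93 to -0.14, AKR1C2 of -1.86 to 0.04 and AKR1C3 of -1.80 to 0.48. Abundant members of the same list were lower, with FTH1, the ferritin heavy chain gene, at 187 and 109 (-0.78). Of 18 hypoxia and glycolysis genes 1 was higher (3.63% of all genes). It was ENO2 (0.673 to 1.59, 1.13), which passed only by its level after DAC. The median of the list was -0.16, or 0.022 at a common sum.

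None of the members of the remaining lists passed 2-fold: 3 metallothioneins (median -0.63), 9 histone deacetylases (-0.14), 20 unfolded protein and amino acid stress genes (-0.12), 20 cholesterol synthesis genes (-0.15), 5 lung lineage genes (-0.03), 3 retroviral envelope genes (0.65), 32 kinesins (-0.02), 22 HOX genes (-0.17) and 1 clustered protocadherin (-0.53). The 3 retroviral envelope genes were below 1 FPKM in Mock and passed only by their level after DAC. At a common sum the medians of histone deacetylases (0.04), stress genes (0.06), cholesterol genes (0.02), lung lineage genes (0.16), kinesins (0.16) and HOX genes (0.01) were above 0. Over all 31 lists with at least 3 members, with the FPKM as deposited, the CL1-0 median was below those of all 5 other lines in 12 and above them in 1. The CL1-0 median was below 0 in 19 lists, and in 8 at a common sum, where the tally against the other lines is not given.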
